A study of Mus musculus with 4 samples.

Results

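The 10 genes Clca1, Muc5b, Chil4, Slc26a4, Il33, Chil3, Mmp12, Arg1, Retnla and Ccl24 were taken from 32285 genes counted. They are grouped here under type 2 inflammation in the mouse lung, a label that was not tested. They were chosen by their lower level in transgenic than in WT lungs of these same mice, so their values between the genotypes are given as a description with no test, and the class of nuclei in which each gene is highest was tested instead. Single-nucleus RNA-Seq was done on whole lungs of 2 WT mice of the strain C57/BL6J and 2 VEcad-TRF2DN-Tg mice. The Tg mice carry a dominant-negative form of human TRF2, a protein that protects telomeres, behind the promoter of VE-cadherin, a gene of endothelial cells (ECs), and its expression in other cells was not measured here. The study's methods give males of 8 to 9 weeks as the mice regularly used, without an age at harvest of the sequenced lungs. Its results give chronic hypoxia for these lungs in both genotypes. Each mouse is a library of its own, named WT 1, WT 2, Tg 1 and Tg 2. The p-values between genotypes measure the spread between these 4 libraries only. Those between classes measure the spread of class sums that is left after a term for each mouse. They treat the class sums of a mouse as independent.

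Type 2 inflammation is the arm of immunity that answers to helminths and allergens and that underlies much of asthma. Damaged epithelium releases alarmins such as IL-33, and lymphocytes answer with IL-4, IL-5 and IL-13. IL-4 and IL-13 act through a shared receptor chain, encoded by Il4ra, and the transcription factor STAT6. In the airway they turn secretory cells into goblet cells that make mucins and the secreted protein CLCA1, and in macrophages they switch on arginase 1, chitinase-like proteins and RELM-alpha.

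The libraries held 125261739, 146133943, 128645180 and 182014706 UMIs in the order WT 1, WT 2, Tg 1 and Tg 2, and 134745 barcodes had 1500 or more UMIs. A barcode was put in a class when at least 3 of the class's markers were detected and their summed UMIs were above the level in the empty droplets of its mouse, the barcodes with 300 to 800 UMIs, with a score (−log10 of the Poisson probability) of at least 4. Of the 134745 barcodes, 33138 fell in 1 class and 2879 passed for several classes and were left out as mixed, which stood in for a doublet caller. The share in 1 class was 17.2% in WT 1, 15.4% in WT 2, 39.9% in Tg 1 and 28.4% in Tg 2. Barcodes without a class carried 67.8%, 64.8%, 47.7% and 56.0% of the UMIs in the same order of mice. Whether these are droplets of free RNA, the RNA that floats between nuclei, or nuclei with few markers was not tested. Between 176 and 475 barcodes with 1500 or more UMIs had the same barcode in both libraries of a pair, and 1671 to 5438 barcodes per mouse lay within 100 UMIs below that minimum against 1527 to 4859 within 100 above it. Scgb1a1, the secretory protein of club cells, showed how unequal the free RNA was, with 15011 and 15673 UMIs per 1000000 (CPM) in the empty droplets of the WT mice against 128052 and 43359 CPM in those of the Tg mice. The transgene is human and its sequence is no row of the matrices. Mouse Terf2 stood at 50.4, 50.4, 45.1 and 52.5 CPM in Endothelial-like barcodes, which checks nothing about it.

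Over all barcodes with 1500 or more UMIs, 8 of the 10 genes had both Tg mice below both WT mice, and Muc5b and Chil3 overlapped between the genotypes. That is a share the choice of genes brings about, and 26.1% of all 21018 genes with enough UMIs showed the same order. Clca1, a goblet cell protein that is shed into mucus, was at 1215 CPM in WT 1, 182 CPM in WT 2, 127 CPM in Tg 1 and 59.8 CPM in Tg 2. WT 1 stood far above the other 3 mice, by 6.66-fold over WT 2, while WT 2 was 1.44-fold above the higher Tg mouse. Chil4, the chitinase-like protein Ym2, repeated this order with 152, 22.2, 13.5 and 5.74 CPM. For Clca1 and Chil4 the gap between the WT mice was wider than the gap between WT 2 and either Tg mouse. Without WT 1 the difference of Tg minus WT was −1.06 for Clca1 and −1.23 for Chil4 as log2(CPM + 1), against −2.42 and −2.59 with all mice.

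Slc26a4, the anion exchanger pendrin, was at 503, 154, 29.7 and 66.2 CPM in the same order of mice. Mmp12, the macrophage elastase, was at 425, 124, 7.76 and 73.1 CPM. Both WT mice lay above both Tg mice for these genes, and Tg 1 was the lowest, without which the difference of Mmp12 was −1.64 in place of −3.18. Arg1, which splits arginine in alternatively activated macrophages, was at 23.9, 4.93, 1.95 and 3.74 CPM, with WT 2 at 1.32-fold over Tg 2, and its difference was −0.67 without WT 1 against −1.70 with all mice. The eotaxin gene Ccl24, a ligand that draws eosinophils, was at 17.0, 9.83, 0.77 and 1.39 CPM. Of the 10 genes it had the widest gap between the lower WT and the higher Tg mouse: WT 2 was 7.09-fold above the higher Tg mouse, and the WT mice differed by 1.73-fold. Retnla, which encodes RELM-alpha, was at 1748, 1448, 729 and 400 CPM, and the WT mice were close to each other.

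Il33, the alarmin, was at 528, 314, 215 and 294 CPM, so WT 2 and Tg 2 were nearly level, at a ratio of 1.07. Muc5b, a mucin of the normal airway, was at 290, 75.3, 125 and 81.1 CPM, and both Tg mice were above WT 2. Chil3, the chitinase-like protein Ym1 of alveolar macrophages, was at 2184, 4470, 1335 and 3561 CPM, and Tg 2 was above WT 1. These overlaps showed in the differences, which went from −0.55 to 0.41 for Muc5b without WT 1 and from −0.52 to 0.19 for Chil3 without Tg 1. In edgeR's fit the difference of Tg minus WT had a median of −2.62 over the 10 genes on the log2 scale, against 0.021 over all genes tested, which restates how the genes were chosen. Without WT 1 that median was −1.14. In summed barcodes, fewer cells of a type, less RNA per cell and an unequal part of free RNA cannot be told apart. Scgb1a1 in these sums was at 0.63, 0.64, 0.30 and 0.36 times its level in the empty droplets of WT 1, WT 2, Tg 1 and Tg 2.

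In the empty droplets 7 of the 10 genes were lower in both Tg mice, against 35.9% of all genes. Clca1 overlapped there as well, at 1973, 283, 295 and 132 CPM in the same order of mice. Chil3 was higher in the empty droplets of Tg 2, with 6923 CPM, than in those of WT 1, WT 2 and Tg 1, with 2662, 5333 and 3044 CPM. The order of the genotypes was thus the same in the empty droplets and in the sum of the larger barcodes for Slc26a4, Mmp12, Chil4, Arg1, Ccl24, Retnla and Il33.

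**Figure D1:**
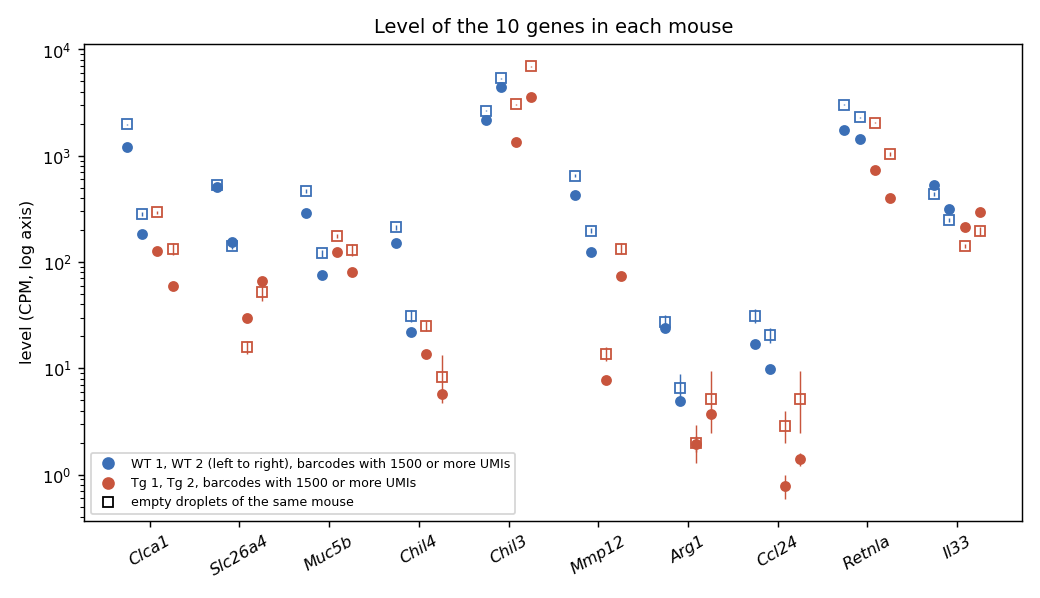
Level of each gene in CPM on a log axis, with filled points for the summed barcodes with 1500 or more UMIs and open squares for the empty droplets of the same mouse, WT in blue and Tg in red, and 95% exact Poisson intervals as lines. WT 1 is the highest mouse for 9 genes, Chil3 being the exception, and Clca1 is at 1215 CPM in WT 1 and at 182, 127 and 59.8 CPM in the other mice.

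Which class led for each gene was tested across 12 classes with at least 20 barcodes in every mouse, each class against the mean of the other 11, with a term for each mouse in the quasi-likelihood test of edgeR, adjusted by Benjamini-Hochberg over 15706 genes. Classes are named after their markers (Airway secretory-like and so on), and none of the 10 genes is a marker. Of the 10 genes, 3 were higher in Airway secretory-like barcodes, where 20.9% of all genes were, 3 in Alveolar type 2-like barcodes, where 19.2% were, and 4 in Alveolar macrophage-like barcodes, where 27.7% were. To set these levels against free RNA, the level in the empty droplets of the same mouse was multiplied by the class's Scgb1a1 level over that of the empty droplets. That ratio ran from 0.31 to 0.66 over the classes of WT 1 and from 0.21 to 0.33 over those of Tg 1. It takes Scgb1a1 as RNA that no nucleus adds to. The secretory class did not differ in Scgb1a1 from the mean of the others (log2 difference 0.065, SE 0.063, edgeR adjusted p = 0.42). Its ratio, 0.38, 0.42, 0.28 and 0.31, was above that of Alveolar type 1-, Ciliated- and Mesothelial-like barcodes in each mouse. It was below that of Endothelial-, T cell- and B cell-like ones. The free RNA in a class is not known, so the test cannot show that secretory nuclei add no Scgb1a1.

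**Figure D2:**
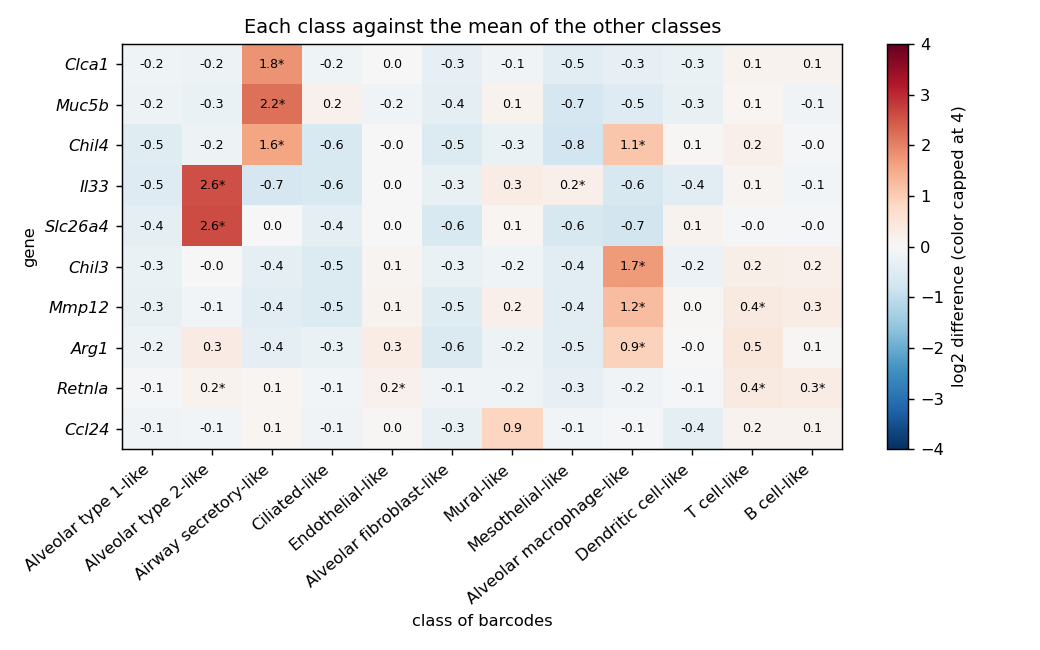
Log2 difference of each class (columns) from the mean of the other classes for each gene (rows), red for higher and blue for lower, with a star where the class was higher at an adjusted p under 0.05 in edgeR. Clca1, Muc5b and Chil4 peak in Airway secretory-like, Il33 and Slc26a4 in Alveolar type 2-like, and Chil3, Mmp12 and Arg1 in Alveolar macrophage-like barcodes, while Retnla and Ccl24 have no strong column.

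The goblet cell genes were highest in the Airway secretory-like class. Most of their UMIs lay outside it, since the class carried 6.61%, 7.24%, 16.4% and 12.3% of the Clca1 UMIs in barcodes with 1500 or more UMIs and 2.80%, 3.29%, 7.19% and 6.07% of all UMIs, while barcodes without a class carried 77.8%, 76.4%, 51.0% and 61.9% of the Clca1 UMIs. The class had 376, 494, 1563 and 1797 barcodes with medians of 4728, 6669, 3150 and 4253 UMIs, and 8.13%, 8.33%, 15.5% and 14.4% of the barcodes with a class. Between 93 and 420 of them per mouse lay within 1 unit of the score's threshold, as did 263 to 495 of the Alveolar type 2-like and 69 to 368 of the Alveolar macrophage-like barcodes. Its own markers had medians of 3.33 to 4.33 UMIs per 1000, against 0.54 to 0.96 in the empty droplets, and the next class's markers stayed at 0.95 to 1.33 per 1000, below their level in the empty droplets.

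Clca1 was 1.81 higher in this class on the log2 scale (SE 0.073, edgeR adjusted p = 1.3e-26). Its level there was 2866, 402, 289 and 122 CPM, and it exceeded the level expected of free RNA by 3.79-, 3.38-, 3.53- and 3.01-fold. In the other 11 classes it stayed between 0.70 and 1.44 times that level. Over the median CPM of the other classes Clca1 was 4.39-, 4.31-, 2.85- and 3.03-fold higher, so the class led in all 4 mice, with this second ratio higher in both WT mice. Muc5b was 2.21 higher (SE 0.062, edgeR adjusted p = 7.2e-33), at 801, 186, 416 and 210 CPM. Tg 1 and Tg 2 were both above WT 2 for Muc5b, so the secretory class showed no order of the genotypes for this mucin.

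Chil4 was 1.56 higher in secretory barcodes (SE 0.15, edgeR adjusted p = 2.6e-12) and 1.12 higher in Alveolar macrophage-like ones (SE 0.18, edgeR adjusted p = 4.8e-07), the latter being 0.66 without WT 2. In secretory barcodes it was at 338, 40.1, 27.1 and 10.7 CPM, and in macrophage barcodes at 115, 50.3, 12.4 and 13.5 CPM. In WT 1 the secretory class was at 4.17 times the level expected of free RNA, and the highest other class at 1.55 times. After thinning, 16.5% of macrophage and 14.1% of other barcodes had a Chil4 UMI in WT 1, against 7.34% and 2.03% in WT 2. The macrophage value of WT 1 was thus near that of the other barcodes. WT 1 and Tg 1 had their higher Chil4 level in the secretory class, and WT 2 and Tg 2 in the macrophage class. The macrophage value of Chil4 is uncertain because of Chil3, its near copy. The longest transcripts of Chil3 and Chil4 were 94.4% identical (1452 of 1538 aligned bases), and their last 300 bases, which a 3′ library reads most, 90.0% (269 of 299). In macrophage barcodes Chil3 had 7356, 6160, 2774 and 4540 CPM, 64.0 times the Chil4 level in WT 1, the mouse where the 2 were closest.

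The spread of Clca1 over single barcodes was uneven. After each barcode was thinned to 1500 UMIs, 138 of 376 secretory barcodes of WT 1 had 5 or more Clca1 UMIs (36.7%, exact binomial 95% interval 31.8 to 41.8), and 20 of 494 did in WT 2 (4.05%, 2.49 to 6.18). In the Tg mice it was 34 of 1563 (2.18%, 1.51 to 3.03) and 24 of 1797 (1.34%, 0.86 to 1.98). Without thinning the shares were 56.4%, 8.91%, 4.03% and 2.73%, against 13.8%, 0.28%, 0.23% and 0.038% in the other classes. In the other classes the thinned shares were 1.33%, 0.037%, 0.024% and 0%, and the last of these, 0 of 10628 barcodes, allows a share of up to 0.028% by a limit of 3 counts and 0.035% by the exact binomial 95% interval. Their median depths were 3455, 4453, 2885 and 3580.5 UMIs. Intervals cover counting error only. Secretory barcodes rich in Clca1 were therefore present in every mouse and made up a share many times higher in WT 1.

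These Clca1-rich barcodes carried the other goblet cell genes in both genotypes. Muc5b had a mean of 2.08, 1.95, 2.00 and 1.17 UMIs per thinned barcode in them, against 0.36, 0.11, 0.61 and 0.29 in secretory barcodes without a Clca1 UMI. Chil4 had 0.96, 0.80, 0.76 and 0.42 against 0.12, 0.023, 0.020 and 0.0092 UMIs. The goblet mucin Muc5ac had 0.33, 1.05, 0.59 and 0.17 against 0, 0.0026, 0.021 and 0.012 UMIs, and Spdef, the master factor of goblet cells, had 0.32, 0.25, 0.35 and 0.29 against 0, 0.021, 0.040 and 0.029 UMIs. Each of these genes was higher in the Clca1-rich barcodes of all 4 mice. Chil3, a macrophage gene read here as free RNA, had 1.35, 3.20, 1.09 and 3.75 UMIs with Clca1 and 1.40, 3.32, 1.57 and 3.88 without, so it did not go with Clca1. Slc26a4 went with Clca1 in 3 mice, with 0.60, 0.26 and 0.12 UMIs in WT 2, Tg 1 and Tg 2 against 0.11, 0.028 and 0.042, but not in WT 1, with 0.62 against 0.70 UMIs. The Clca1-rich sets of WT 2, Tg 1 and Tg 2 hold 20, 34 and 24 barcodes, and Slc26a4 rests on 12, 9 and 3 UMIs in them.

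**Figure D3:**
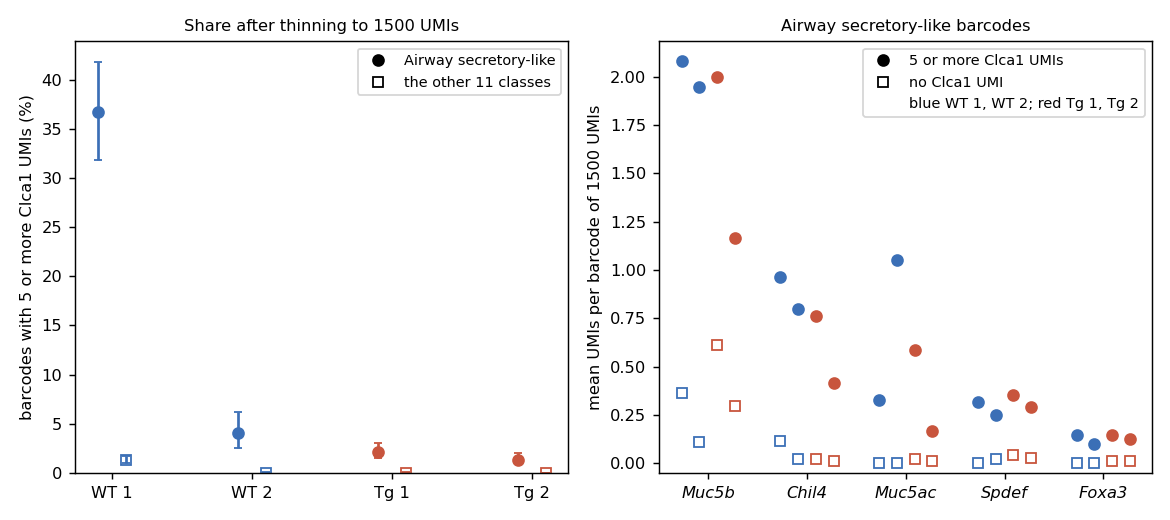
Left, the percentage of barcodes with 5 or more Clca1 UMIs after thinning to 1500 UMIs, in Airway secretory-like barcodes (filled) and the other 11 classes (open), with exact binomial 95% intervals. Right, mean UMIs of 5 goblet cell genes in secretory barcodes with 5 or more Clca1 UMIs (filled) and with none (open), WT in blue and Tg in red: WT 1 has the largest share of such barcodes, 36.7%, and all 5 genes are higher in them in each mouse.

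The Alveolar type 2-like class, whose cells make surfactant, was the highest for Il33 and Slc26a4. It carried 14.8%, 17.5%, 19.0% and 15.0% of the Slc26a4 UMIs, against 72.0%, 67.0%, 53.3% and 62.4% in barcodes without a class. It had 1063, 1121, 1304 and 1507 barcodes with medians of 3554, 5028, 2714 and 3846 UMIs. Its own markers were at 6.38 to 8.07 UMIs per 1000 and those of Alveolar type 1 cells, the next class, at 0.83 to 1.06. Il33 was 2.57 higher than in the mean of the other classes (SE 0.064, edgeR adjusted p = 5.0e-35), at 1560, 989.8, 764 and 990.4 CPM. WT 1 was the highest and Tg 1 the lowest, and WT 2 and Tg 2 were the same within counting error, with 95% exact Poisson intervals of 965 to 1015 and 966 to 1015 CPM. Il33 exceeded the Scgb1a1-scaled level by 8.74-, 10.8-, 19.1- and 18.6-fold in these barcodes, but the median of the other classes was also above it, at 1.43, 1.77, 3.22 and 3.32 times. Against the median CPM of the other classes Il33 was 6.51-, 5.84-, 5.37- and 5.32-fold higher, so the order of the mice in the first ratio was not that of the second. It was also higher in Mesothelial-like barcodes, by 0.20 (SE 0.083, edgeR adjusted p = 0.0495), a call kept in 2 of 8 alternative settings.

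Slc26a4 was 2.60 higher in type 2-like barcodes (SE 0.088, edgeR adjusted p = 1.0e-29), at 1233, 482, 111 and 226 CPM, and exceeded the Scgb1a1-scaled level by 5.75-, 9.35-, 25.0- and 15.8-fold. The median of the other classes stood at 1.19, 1.31, 2.85 and 2.54 times that level, and over their median CPM Slc26a4 was 4.59-, 5.54-, 7.90- and 6.14-fold higher. Both WT mice lay above both Tg mice, by 2.13-fold from WT 2 to Tg 2. The share of type 2-like barcodes with a Slc26a4 UMI after thinning was 59.5%, 25.6%, 8.44% and 20.5%, against 28.7%, 10.4%, 1.52% and 4.52% in the other classes. For Il33 it was 69.1%, 53.1%, 51.2% and 55.2% against 29.1%, 20.7%, 12.9% and 18.7%. Without thinning the Slc26a4 shares were 81.7%, 47.3%, 13.4% and 37.1% in type 2-like barcodes and 54.0%, 26.3%, 2.90% and 10.3% in the others, whose median depths were 3562.5, 4480, 2984 and 3671 UMIs. The Il33 shares were then 85.5%, 81.8%, 67.1% and 76.6% against 53.4%, 46.0%, 23.1% and 37.0%. Slc26a4 thus differed more between mice than Il33 did within the same class. Type 2-like barcodes with a Slc26a4 UMI held 1.32, 1.70, 1.82 and 1.49 times as many Il33 UMIs as those without, a split at 1 UMI that free RNA also reaches and for which no reference gene was run.

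The Alveolar macrophage-like class had 334, 586, 939 and 1036 barcodes with medians of 3855.5, 6212.5, 2870 and 4212.5 UMIs, and own markers at 4.34 to 6.25 UMIs per 1000 against 0.80 to 1.10 for the next class. Chil3 was 1.71 higher in it (SE 0.10, edgeR adjusted p = 1.1e-19) and exceeded the Scgb1a1-scaled level by 7.74-, 3.85-, 3.45- and 2.67-fold. Over the median CPM of the other classes Chil3 was 5.86-, 2.70-, 2.61- and 1.71-fold higher. With the level given above, both WT mice were higher than both Tg mice within this class, although they overlapped in the sum of all barcodes. Of macrophage barcodes, 82.9%, 78.7%, 39.0% and 73.0% had 5 or more Chil3 UMIs after thinning. In the other classes the share was 7.23% in WT 1 and 4.39% in Tg 1, but 39.5% in WT 2 and 44.9% in Tg 2, the mice with the most Chil3 in their empty droplets. Without thinning it was 94.6%, 99.7%, 76.6% and 99.1% of macrophage barcodes and 45.3%, 95.0%, 24.9% and 94.4% of the others, at median depths of 3524, 4423.5, 2949 and 3630 UMIs.

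Mmp12 was 1.22 higher in macrophage barcodes (SE 0.10, edgeR adjusted p = 3.9e-15), at 822, 138, 14.8 and 82.8 CPM. WT 1 was 5.94-fold above WT 2, Tg 1 had 43 UMIs in 939 barcodes, and the Scgb1a1-scaled level was exceeded by 3.56-, 2.34-, 4.09- and 2.53-fold. Over the median CPM of the other classes Mmp12 was 3.24-, 2.25- and 1.53-fold higher in WT 1, WT 2 and Tg 2. The highest other class in these mice was at 488, 114 and 80.3 CPM, so the lead was small in WT 2 and Tg 2. In Tg 1 the highest ratio to free RNA was in Dendritic cell-like barcodes, at 9.02-fold from 11 UMIs in 102 barcodes. Mmp12 was also 0.37 higher in T cell-like barcodes (SE 0.12, edgeR adjusted p = 0.021), a call kept in 3 of 8 alternative settings, where Scgb1a1 was 0.25 higher (SE 0.062, edgeR adjusted p = 0.0015). Macrophage barcodes with a Mmp12 UMI held 0.94, 1.18, 1.17 and 1.08 times as many Chil3 UMIs as those without, a split at 1 UMI that free RNA also reaches: after thinning 13.7% of macrophage and 11.2% of other barcodes had a Mmp12 UMI in WT 2, and 9.65% and 8.55% in Tg 2. The shares lay further apart in WT 1, at 54.5% and 32.4%, and 22 of the 939 macrophage barcodes of Tg 1 had such a UMI.

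Arg1 was 0.93 higher in macrophage barcodes (SE 0.24, edgeR adjusted p = 0.0011), but this rested on 1 mouse. The level was 52.0 CPM in WT 1, from 76 UMIs, and 2.97, 1.03 and 2.95 CPM in the others, from 12, 3 and 14 UMIs. Without WT 1 the difference was 0.052 and no longer passed the threshold. Arg1 in macrophage barcodes was at 5.39 times the Scgb1a1-scaled level in WT 1 and at 1.51, 1.96 and 2.34 times in the other mice. There another class had a higher ratio, up to 1.83 in WT 2, 6.07 in Tg 1 and 2.63 in Tg 2. Apart from the highest class, the median over classes was 1.44, 0.85, 4.07 and 2.29 times that level. The macrophage ratio was thus below this median in Tg 1 and near it in Tg 2.

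**Figure D4:**
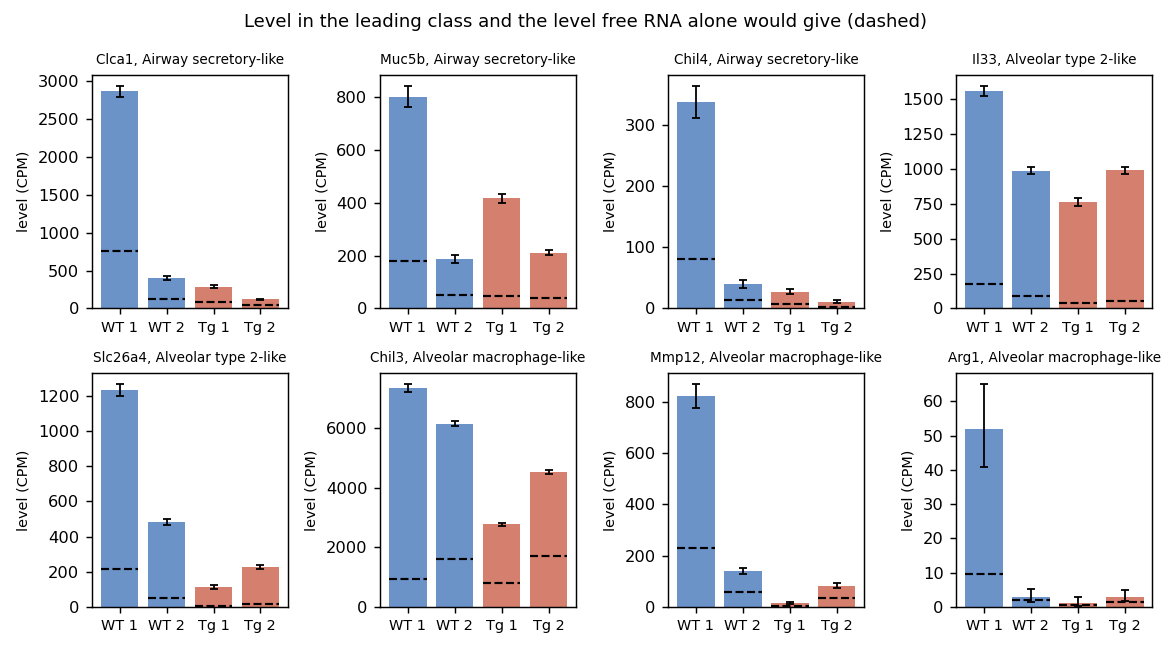
Level in CPM of 8 genes in the class where they were highest, per mouse, with 95% exact Poisson intervals, WT in blue and Tg in red. Dashed lines give the level that free RNA alone would give by the Scgb1a1 ratio: each bar of Clca1, Muc5b, Il33, Slc26a4 and Chil3 is above its line, WT 1 stands out for Clca1, Chil4, Mmp12 and Arg1, and Muc5b and Il33 do not separate the genotypes.

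Retnla and Ccl24 were spread over the classes. Retnla, with 388997 UMIs in barcodes with 1500 or more UMIs, lay between 0.78 and 1.39 times the free RNA level in all 48 sums of a class and a mouse. It was higher in T cell-like (0.36, SE 0.061, edgeR adjusted p = 7.2e-06), B cell-like (0.29, SE 0.065, edgeR adjusted p = 0.00054), Endothelial-like (0.17, SE 0.061, edgeR adjusted p = 0.030) and Alveolar type 2-like barcodes (0.15, SE 0.061, edgeR adjusted p = 0.042). The last 2 of these calls were kept in 1 and 3 of 8 alternative settings, and those in T cell-like and B cell-like barcodes were lost at 3000 or more UMIs, with differences of 0.10 and 0.016. Scgb1a1 also led in T cell-like and B cell-like barcodes, at 0.25 and 0.25. Ccl24 passed in no class by edgeR. Its highest difference, 0.87 in Mural-like barcodes (edgeR adjusted p = 0.50), rested on 5, 1, 0 and 0 UMIs, and 46 of its 48 sums were under 1.5 times the free RNA level. Its 2492 UMIs left 0 to 50 in any one class and mouse, so a source among the 12 classes was not detectable at this depth. The Adventitial fibroblast, Interstitial macrophage, Monocyte, Neutrophil, NK cell, Mast cell and basophil and Cardiac muscle classes had under 20 barcodes in at least 1 mouse and were not tested. Interstitial macrophage-like barcodes numbered 10, 8, 32 and 22, with 44, 60, 90 and 28 Retnla UMIs (1203, 764, 879 and 328 CPM) and 0 Ccl24 UMIs in each mouse, and their part in the summed levels was not tested. NK cell-like barcodes had more Retnla in each mouse, at 1728, 1701, 986 and 409 CPM from 11, 45, 44 and 34 UMIs. Neutrophil-like and Cardiac muscle-like ones had more in all mice but Tg 1. Monocyte-like ones had more in WT 1 and Tg 2 only, and Adventitial fibroblast-like ones in WT 2 and Tg 2 only. Adventitial fibroblast-like barcodes, 18, 5, 21 and 7 in number, held Il33 at 509, 344, 280 and 173 CPM, from 37, 7, 17 and 4 UMIs.

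Promoter sequence is shown for 4 genes, the near copies Chil3 and Chil4, the gene with the flattest profile over classes (Retnla) and Il33. Chil3 was highest in macrophage barcodes in each mouse. Chil4 was highest in secretory barcodes in WT 1 and Tg 1 and in macrophage barcodes in WT 2 and Tg 2. Sequences are from RefSeq on GRCm38.p6, 5′ to 3′ on the gene's strand, up to the base before the gene's start in the annotation. The exception is Il33, whose sequence ends at 29925112 while the gene starts at 29925114. Capitals mark TTC and GAA with any 3 bases between them in Chil3 and Chil4, and with any 4 in Retnla and Il33, the palindromes that STAT proteins bind, the longer one being preferred by STAT6. Both read the same on either strand.
Chil3 (chr3:106167565-106167814, minus strand): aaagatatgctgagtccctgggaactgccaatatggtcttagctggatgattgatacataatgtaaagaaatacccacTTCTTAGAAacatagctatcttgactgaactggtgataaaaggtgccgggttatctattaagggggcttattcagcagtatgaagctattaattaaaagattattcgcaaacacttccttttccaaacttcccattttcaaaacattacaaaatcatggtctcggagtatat
Chil4 (chr3:106219508-106219729, minus strand): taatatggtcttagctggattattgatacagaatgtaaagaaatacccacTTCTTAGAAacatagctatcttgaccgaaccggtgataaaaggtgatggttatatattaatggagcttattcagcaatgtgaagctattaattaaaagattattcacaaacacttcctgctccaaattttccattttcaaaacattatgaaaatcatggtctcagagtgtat
Retnla (chr16:48842359-48842550, plus strand): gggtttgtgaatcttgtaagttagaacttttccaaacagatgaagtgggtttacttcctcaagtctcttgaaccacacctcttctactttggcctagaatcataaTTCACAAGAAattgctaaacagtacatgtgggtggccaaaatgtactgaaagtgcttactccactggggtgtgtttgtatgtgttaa
Il33 (chr19:29924863-29925112, plus strand): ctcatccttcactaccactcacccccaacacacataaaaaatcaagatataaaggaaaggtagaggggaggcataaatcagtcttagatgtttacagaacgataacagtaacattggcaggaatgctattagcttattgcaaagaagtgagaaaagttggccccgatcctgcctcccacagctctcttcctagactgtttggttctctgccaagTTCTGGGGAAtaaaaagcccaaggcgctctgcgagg

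The match began 172 bases before the start given by RefSeq in Chil3, 200 in Chil4, 145 in Retnla and 36 in Il33. The shorter motif occurred in 2306 of 32851 promoter windows of 250 bases (7.02%) and the longer one in 1923 (5.85%). Neither was in the windows of Mmp12 and Slc26a4, and 6 of the 10 genes had a window. The windows of Chil3 and Chil4 were 91.0% identical (201 of 221 aligned bases), and the genes lie near each other, Chil3 at chr3:106147554-106167564 and Chil4 at chr3:106201490-106219507. A match is a string of letters and is no evidence that a factor binds there. The other genes lie at chr3:145003817-145032776 (Clca1), chr7:141839070-141873084 (Muc5b), chr12:31519827-31559969 (Slc26a4), chr19:29925114-29960718 (Il33), chr9:7344381-7369499 (Mmp12), chr10:24915221-24927484 (Arg1), chr16:48842551-48844461 (Retnla) and chr5:135569937-135573049 (Ccl24) of GRCm38, and introns make up 56.0% (Muc5b) to 92.3% (Slc26a4) of them.

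Of the other genes of the type 2 pathway, 63 were in the matrices, and the same comparison of Tg with WT was tested for them. Over all barcodes with 1500 or more UMIs, 58 could be tested, 1 was lower and 0 were higher in the Tg mice at an edgeR adjusted p under 0.05, where 0.2% of the other 21008 genes were lower and 3.88% higher. Of the 58 genes 16 had an unadjusted p under 0.05, as did 28.2% of all genes. DESeq2 called 11 lower and 2 higher, and of all genes with an adjusted p it called 3.44% lower and 10.6% higher. The median difference of the 58 genes was −0.37 on the log2 scale, against 0.021 over all genes, for a list chosen with earlier results of these data known. Without WT 1 and WT 2 edgeR called 8 and 19 of them, where it called 1621 and 2931 of all genes, and without Tg 1 or Tg 2 it called 0 of all genes, so the lists say nothing there. The gene that was lower was Ccl7, a chemokine for monocytes and eosinophils, at 2.81, 2.66, 0.44 and 0.39 CPM (log2 difference −2.79, SE 0.35, edgeR adjusted p = 0.034).

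The cytokines were rare. Il13 had 34, 37, 1 and 12 UMIs (log2 difference −2.95, SE 0.73, edgeR adjusted p = 0.080), so the groups did not overlap but the test was not passed. Il5 had 15, 26, 41 and 32 UMIs (0.66, SE 0.57, edgeR adjusted p = 0.48). Il4 had 126, 94, 212 and 286 UMIs (0.78, SE 0.48, edgeR adjusted p = 0.33), with its highest level in Ciliated-like barcodes (log2 difference from the other classes 3.10, SE 0.25, edgeR adjusted p = 1.8e-15) and the next in T cell-like ones (1.95, SE 0.37, edgeR adjusted p = 4.3e-05). Il4 lies tail to tail with Kif3a, a motor of cilia that was chosen for mention after its values were seen, 1014 bases apart on chromosome 11. Kif3a was at 122, 94.7, 84.2 and 76.4 CPM in Ciliated-like barcodes, where Il4 was at 5.04, 3.01, 17.0 and 13.8 CPM. Kif3a lies on the plus and Il4 on the minus strand, and the source of these Il4 counts was not tested. Tslp, an alarmin of the epithelium, was at 0.73, 0.67, 1.45 and 1.15 CPM (0.83, SE 0.37, edgeR adjusted p = 0.21).

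None of the 4 genes for the receptors Il4ra, Il13ra1 and Il1rl1 and for STAT6 passed the test between the genotypes. Il4ra had a log2 difference of 0.11 (SE 0.21, edgeR adjusted p = 0.77), Il13ra1 one of −0.18 (SE 0.22, edgeR adjusted p = 0.61) and Stat6 one of 0.28 (SE 0.19, edgeR adjusted p = 0.36), with both Tg mice (56.9 and 59.3 CPM) above both WT mice (39.4 and 52.5 CPM). Il1rl1, the receptor of IL-33, was at 5.28, 7.08, 2.57 and 4.21 CPM, with both WT mice above both Tg mice (−0.92, SE 0.35, edgeR adjusted p = 0.16), and was highest in T cell-like barcodes (2.45 over the other classes, SE 0.24, edgeR adjusted p = 3.8e-12). Il13ra1 was highest in Airway secretory-like barcodes (1.42, SE 0.077, edgeR adjusted p = 2.3e-21) and Il4ra in Alveolar macrophage-like ones (1.04, SE 0.11, edgeR adjusted p = 1.5e-11). These receptor chains thus led in different classes. In secretory barcodes Il4ra, the shared chain, was at 16.7, 13.9, 20.4 and 23.1 CPM. That was below its level over all barcodes in each mouse, at 26.1, 29.4, 26.2 and 36.1 CPM. Of 45 pathway genes tested between classes, 12 were higher and 18 lower in secretory, 3 higher and 13 lower in type 2-like and 13 higher and 8 lower in macrophage barcodes. Of all genes, the 20.9%, 19.2% and 27.7% above were higher and 25.8%, 21.2% and 25.3% lower.

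Muc5ac was at 28.3, 11.6, 6.95 and 2.87 CPM and did not overlap between the genotypes, but did not pass the test (log2 difference −2.09, SE 0.595, edgeR adjusted p = 0.10). Within secretory barcodes it was at 124, 39.3, 21.1 and 8.12 CPM (−2.53, SE 0.64, edgeR adjusted p = 0.075). Spdef was at 17.0, 5.76, 9.16 and 5.90 CPM (−0.66, SE 0.55, edgeR adjusted p = 0.46), with WT 1 the highest and Tg 1 next. Both were highest in secretory barcodes, by 2.60 (SE 0.16, edgeR adjusted p = 5.6e-19) and 3.16 (SE 0.12, edgeR adjusted p = 6.3e-27). Mrc1, the mannose receptor of macrophages, was at 1571, 2016, 1601 and 1645 CPM in macrophage barcodes and differed by −0.17 there (SE 0.25, edgeR adjusted p = 0.70). The eosinophil chemokine Ccl11 differed by −0.068 over all barcodes (SE 0.66, edgeR adjusted p = 0.96) and Ccl17, a chemokine for T cells, by −0.38 (SE 0.72, edgeR adjusted p = 0.75).

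Within the classes the pathway genes gave few calls. In secretory barcodes 1 of 38 was higher in the Tg mice and 0 were lower, where 4.55% of the other genes were higher and 0.267% lower, and in type 2-like barcodes 1 of 40 was higher and 0 lower, where 8.42% were higher and 1.16% lower. In macrophage barcodes 0 of 36 passed in edgeR, where 5.96% of genes were higher and 0.982% lower, 8 had an unadjusted p under 0.05, as did 27.8% of all genes, and DESeq2 called 1 higher and 0 lower, where it called 5.17% and 2.11% of all genes. The call in secretory and in type 2-like barcodes was Crlf2, the receptor of TSLP (log2 difference 2.16, SE 0.44, edgeR adjusted p = 0.043, and 2.09, SE 0.35, edgeR adjusted p = 0.016). Crlf2 was also higher in the empty droplets of the Tg mice, with 32.0 and 27.2 CPM against 3.96 and 7.0 CPM. Its level in type 2-like barcodes, at 2.19, 3.28, 11.5 and 12.2 CPM, was below that of the empty droplets in each mouse but 1.36, 1.28, 1.28 and 1.64 times the Scgb1a1-scaled level. In secretory barcodes, at 1.57, 2.51, 10.4 and 9.63 CPM, Crlf2 was near the Scgb1a1-scaled level, at 1.03, 0.85, 1.17 and 1.16 times. Without Tg 1 or Tg 2 the call did not pass, with differences of 2.10 and 2.09 in type 2-like barcodes that had not moved. In secretory barcodes it was lost under DESeq2 (adjusted p = 0.060), at 3000 or more UMIs (0.073) and with mixed barcodes kept (0.064).

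Of the members' relatives, 29 paralogs with at least 50 UMIs were tested. Over all barcodes 0 passed in edgeR, 8 had an unadjusted p under 0.05, and DESeq2 called 2 higher and 3 lower, beside the 28.2%, 10.6% and 3.44% of all genes above. In secretory barcodes 2 of 18 were higher and 0 lower in edgeR. In type 2-like barcodes 1 of 18 was higher and 1 lower, and in macrophage barcodes 1 of 16 was higher and 1 lower. The shares of all genes in these classes are given above. Muc16, a mucin tethered to the membrane, was higher in Tg mice in secretory (1.88, SE 0.32, edgeR adjusted p = 0.028), type 2-like (1.21, SE 0.21, edgeR adjusted p = 0.018) and macrophage barcodes (1.31, SE 0.23, edgeR adjusted p = 0.021). In each of these classes its level was below that over all barcodes in each mouse, which was 50.3, 78.5, 138 and 147 CPM. In secretory barcodes Muc16 was at 31.4, 23.9, 132 and 76.5 CPM. Whether free RNA gave these differences was not tested. Muc16 was highest in Mesothelial-like barcodes (4.38 over the other classes, SE 0.11, edgeR adjusted p = 2.1e-35), which made up 5.32%, 6.66%, 7.54% and 9.70% of the barcodes with a class. Among the relatives of Il33, Il18 was higher in the Tg mice in secretory barcodes (1.40, SE 0.30, edgeR adjusted p = 0.049). Its level there was below its level over all barcodes in each mouse. Il18 was highest in macrophage barcodes (2.16 over the other classes, SE 0.11, edgeR adjusted p = 1.8e-22). In those barcodes Il18 did not pass between the genotypes (1.04, SE 0.53, edgeR adjusted p = 0.25). Whether free RNA gave the difference in secretory barcodes was not tested. Il1a was lower in macrophage barcodes (−1.15, SE 0.24, edgeR adjusted p = 0.036), at 42.4, 37.2, 16.1 and 19.8 CPM. In macrophage barcodes no gene passed with the replicate block, Muc16 and Il1a included, at differences of 1.33 and −1.15, and DESeq2 did not call Il1a (adjusted p = 0.054). Arg2, the mitochondrial arginase, was lower in type 2-like barcodes, at 76.0, 94.4, 38.3 and 54.1 CPM (−0.87, SE 0.20, edgeR adjusted p = 0.038), the class in which it was highest. Without Tg 1 or Tg 2, where 1 mouse stands for the genotype, none of Muc16, Il18, Il1a, Arg2 and Ccl7 passed in edgeR, while the differences kept their direction, at −2.88 and −2.69 for Ccl7 and 1.45 and 1.37 for Il18. Arg2 also lost its call without WT 2 (adjusted p = 0.053) and Il18 at 3000 or more UMIs (adjusted p = 0.056).

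The genes whose log2 level ran most like a member's over the 48 sums of a class and a mouse were named by Pearson's r, as a description, since sums of 1 mouse share free RNA and depth. Clca1 was most like Chil4 (0.94), Fcgbp (0.92) and Fer1l6 (0.90), and Muc5b most like Fut9 (0.92), Fcgbp (0.91) and Gm37245 (0.88). Fcgbp, a protein of mucus, followed both. Il33 was most like Lamp3 (0.94), Zfp385b (0.93) and Bmp1 (0.92), and Slc26a4 most like Slc6a20a (0.92), Ddx17 (0.92) and Ppp2r5e (0.88). Chil3 was most like Car4 (0.89), AI504432 (0.88) and Ctsb (0.86). Lamp3 and Car4 are markers used to define the type 2-like and the macrophage class. Mmp12 ran with H2-K1 (0.90), BC005537 (0.90) and Gm28307 (0.90), and Arg1 with Xlr5a (0.84), Fbp1 (0.84) and Rnase2a (0.83). Chil4, Retnla and Ccl24 shared Gm15564 among their nearest genes (0.87, 0.85 and 0.85), beside Gm42418 for Chil4 and Retnla (0.88 and 0.87), Lars2 for Retnla (0.90) and Taco1 and Gm26917 for Ccl24 (0.87 and 0.86).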

How the data were processed

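Raw UMI counts per gene and barcode were deposited as 1 unfiltered 10x matrix per mouse. The submitters' processing notes name Cell Ranger 6.1.1 and mm10, and the study's methods give ambient RNA removal and batch correction that are not part of these counts. Per mouse, 54.5% to 78.0% of UMIs lay in barcodes with 1500 or more UMIs.

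Barcodes with 1500 or more UMIs were given classes from marker lists, leaving out markers above 1000 CPM in the empty droplets, which kept 11 of 17 secretory and 7 of 11 type 2 markers. UMIs were summed per mouse, or per class and mouse, and CPM is UMIs per 1000000 of that sum, with exact Poisson 95% intervals. Sums were compared with edgeR 4.0.16 (R 4.3.3): filterByExpr with a minimum of 10 UMIs, TMM, the quasi-likelihood test and Benjamini-Hochberg adjustment over all genes tested, with a threshold of 0.05. Genotypes were compared without covariates, and classes with a term per mouse, on 12 of 19 classes. The fits were also run on counts simulated with the same dispersion for every gene and independent sums, which does not cover how these data vary. DESeq2 1.42.0, no filter, leaving out each mouse, a replicate block, 3000 UMIs, mixed barcodes kept and other windows of empty droplets were tried, the window of 800 to 1200 UMIs being added after the data had been seen. Levels of genes are per UMI and not per length, as 3′ counts. Classes, levels and sequence matches were computed in Python 3.11.15.

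The 10 genes, the marker lists and the 63 pathway genes were chosen with earlier results of these data known. Named besides the members were pathway genes past the threshold over all barcodes or in a leading class, 13 pathway genes fixed by name, paralogs with 50 or more UMIs (counts and the ones called), and the 3 genes most like each member among 18511 genes.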

Additional observations from a re-analysis of the deposited data

How the results depend on the processing

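The class that led for each gene kept its direction under DESeq2, no filter on low counts, 3000 or more UMIs, mixed barcodes kept and each mouse left out, for Clca1, Muc5b, Chil4, Slc26a4, Il33, Chil3, Mmp12 and Arg1. The lead of Chil4 moved without WT 1, with 1.51 in macrophage against 1.45 in secretory barcodes. Arg1 in macrophage barcodes alone lost its call, with 0.68 under DESeq2 and 0.052 without WT 1. With a mouse left out, 3 to 4 members were higher in secretory, 2 to 3 in type 2-like and 3 to 4 in macrophage barcodes. Of the levels as log2(CPM + 1), the difference of Tg minus WT ran from −1.52 to 0.41 for Muc5b, being 0.41 without WT 1, and from −1.23 to 0.19 for Chil3, being 0.19 without Tg 1.

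Counts of genes that differed between the genotypes were unstable. Over all barcodes 857 genes passed, 3105 under DESeq2, 2519 without a filter and 0 to 2931 with a mouse left out, 0 being the count without either Tg mouse. In secretory, type 2-like and macrophage barcodes 685, 1377 and 933 passed, 2398, 3311 and 2643 without a filter, and 2 to 2452, 7 to 2429 and 4 to 2845 with a mouse left out, the lowest counts being without Tg 1. Of the pathway genes, 1 passed over all barcodes, with 13 under DESeq2, 9 without a filter and 0 to 19 with a mouse left out. In secretory barcodes 1 passed, with 3 under DESeq2, 13 without a filter, 0 at 3000 UMIs and 0 to 12 with a mouse left out. In type 2-like barcodes 1 passed, with 2, 7 and 0 to 7 under DESeq2, no filter and a mouse left out. In macrophage barcodes 0 passed in edgeR (8 at an unadjusted p under 0.05), with 1 under DESeq2, 10 without a filter, 1 at 3000 UMIs and 0 to 10 with a mouse left out. The cause of these shifts was not tested.

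The labels number the mice 1 and 2 in each genotype, and nothing ties equal numbers to a litter or day. The difference of WT 1 from WT 2 and that of Tg 1 from Tg 2 correlated at 0.24 over 21018 genes. With the replicate block, 2687 genes passed over all barcodes and 1398, 2650 and 0 in secretory, type 2-like and macrophage barcodes, and 5, 6, 7 and 0 pathway genes in the same order. Depth limits the rare genes, such as Il13 with 1 to 37 UMIs per mouse and Ccl24 with 0 UMIs in the Mural-like barcodes of both Tg mice.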
